A study of Homo sapiens with 8 samples.

Results

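The regions described here are stretches of opened DNA that lie just outside protein-coding genes in untreated HEK293T cells. Peaks of the 2 control lists were merged, and a merged region was kept where both lists overlapped it. A region was a member where its midpoint lay outside every RefSeq protein-coding gene and 1 to 5 kb from the nearest coding gene end, unless a tRNA, snRNA or snoRNA gene lay within 250 bp. This gave 2336 members, 15.4% of 15177 control regions on chromosomes 1 to 22 and X. A further 42 regions at the same distances were left out because of a small RNA gene. The rule did not use the vitamin C libraries, the strand of the genes, the peaks' enrichment or the regions' width.

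Opened DNA was measured by KAS-seq, in which N3-kethoxal reacts with unpaired guanines in living cells and the labelled fragments are enriched and sequenced. HEK293T is an established human embryonic kidney line. The vitamin C group received 0.5 mM ascorbic acid in the medium for 10 min, after which 5 mM N3-kethoxal was added for a further 10 min, and the control group was labelled in the same way without vitamin C. Each group had 2 labelled libraries with a peak list each, out of 8 samples in the series, and the 4 inputs are not used here. All libraries came from one cell line, and the labels do not say whether replicates were separate cultures, so the spread between libraries behind each p-value may be technical.

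RNA polymerase II does not stop at the annotated end of a gene. It transcribes on past the poly(A) site, slows, and is released after the RNA has been cut and the remaining strand degraded by the exonuclease XRN2. Single-stranded DNA of transcription bubbles is therefore known from the sequence that follows active genes, whereas sequence in front of promoters holds divergent transcription close to the start and enhancers farther away.

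The vitamin C lists held 9816 and 9896 peaks on these chromosomes, against 30351 and 24111 peaks in the control lists. Labelled depth, solved from the authors' enrichment and p-values, was 1.22 and 0.871 fragments per position in the vitamin C libraries and 0.817 and 0.849 in the control libraries. In vitamin C replicate 1 that solution needed the library scaled by 0.776. Of 10 genes set down as HEK293T markers, 5 had a peak in or within 5 kb of the gene in every library, and KRT18, KRT8, LHX1, NEFM and PAX2 had none. Of 12 genes of other tissues, 3 and 2 had a peak in the vitamin C libraries and 5 and 4 in the control libraries.

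Few members contained a transcript start of the table used here, which does not list every gene. Of the 2336, 14 held the 250 bases before a start listed by RefSeq (GRCh38.p14), with 15 such windows of 14 genes, 10 of the windows belonging to long non-coding RNAs. In 3 cases the window lay wholly inside the best peak of all 4 libraries, and these sequences are shown because there the opened DNA can be set against a listed start, of another transcript in 2 cases and of the nearest gene itself at KIFBP. The first precedes the lncRNA LOC105378198 at chr5:140711026-140711275, plus strand, and ends at the base before the listed left boundary of VTRNA1-1, a vault RNA made by RNA polymerase III, downstream of ZMAT2. The second precedes KIFBP, which encodes a kinesin-binding protein, at chr10:68988553-68988802, plus strand. The third precedes the lncRNA SLC25A25-AS1 at chr9:128118735-128118984, minus strand, downstream of PTGES2, a prostaglandin E synthase gene. Each is written 5′ to 3′ on the strand of its transcript, and capitals mark the GC box GGGCGG or its reverse complement CCGCCC, the motif bound by Sp1-family factors.
LOC105378198: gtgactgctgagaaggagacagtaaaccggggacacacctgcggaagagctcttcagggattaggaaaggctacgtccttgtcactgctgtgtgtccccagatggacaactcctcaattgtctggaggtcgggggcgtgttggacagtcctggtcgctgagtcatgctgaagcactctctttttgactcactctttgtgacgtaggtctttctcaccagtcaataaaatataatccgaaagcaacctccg
KIFBP: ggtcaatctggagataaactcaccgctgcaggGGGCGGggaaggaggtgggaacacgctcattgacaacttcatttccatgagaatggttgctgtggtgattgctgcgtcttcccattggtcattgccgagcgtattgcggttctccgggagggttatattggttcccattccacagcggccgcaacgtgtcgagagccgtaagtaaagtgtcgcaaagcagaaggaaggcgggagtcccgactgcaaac
SLC25A25-AS1: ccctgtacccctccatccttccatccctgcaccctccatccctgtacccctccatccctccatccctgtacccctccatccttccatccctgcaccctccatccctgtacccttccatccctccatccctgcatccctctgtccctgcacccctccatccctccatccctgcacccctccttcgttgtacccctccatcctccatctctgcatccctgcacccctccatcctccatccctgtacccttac
The KIFBP window held 1 GC box and the others none. Over all 15 windows, 6 held at least 1 GC box (40%), against 42.7% of the 34961 RefSeq windows of the same length. The printed strand of the SLC25A25-AS1 window had 15 guanines and 139 cytosines, and that of the KIFBP window 80 guanines and 57 cytosines. N3-kethoxal reacts with guanine on either strand, and the peak lists carry no strand.

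At the KIFBP window the summit of the best peak lay at -69 and -94 bases from the start in the vitamin C libraries and at -95 and -87 bases in the control libraries, where negative is before the start, so it fell inside the printed sequence in all 4. At LOC105378198 and VTRNA1-1 the summits lay at 103 and 129 bases in the vitamin C libraries and at 99 and 144 bases in the control libraries, past the start in all 4. At SLC25A25-AS1 they lay at -192 and -11 bases in the vitamin C libraries and at 54 and 41 bases in the control libraries. There the vitamin C summits fell inside the printed window and the control summits past the start.

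The members followed genes far more often than they preceded them. A strand was known for the nearest gene of 1965 members. Of these, 1667 lay downstream of the gene's 3′ end and 298 upstream of its 5′ end, a downstream share of 84.8% (95% Clopper-Pearson interval 83.2 to 86.4%). The sequence searched was nearly equal on both sides, with 37.3 Mb downstream and 39.9 Mb upstream. Members therefore stood at 44.7 regions per Mb downstream and 7.47 per Mb upstream, and control regions with their midpoint inside coding genes at 7.78 per Mb. The interval, like the others below, covers counting error only, and neighbouring members at 1 gene are not independent.

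Downstream of genes, peaks were densest between 1 and 2 kb past the 3′ end, in all 4 libraries. The vitamin C libraries had 48.8 and 48.4 peaks per Mb in that bin and the control libraries 112 and 94.3. In the first kilobase past the 3′ end the densities were 41.6 and 42.2 peaks per Mb in the vitamin C libraries and 98.7 and 80.1 in the control libraries. A wide peak that straddles a gene end can have its midpoint inside the gene and is then not counted here. By 4 to 5 kb the density was 13.1 and 15.3 peaks per Mb in the vitamin C libraries and 42.1 and 34.7 in the control libraries, so the curve fell over kilobases on this side.

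Upstream of genes the density was highest in the first kilobase, with 33.8 and 32.6 peaks per Mb in the vitamin C libraries and 91.6 and 79.6 in the control libraries. Between 1 and 2 kb it was 7.97 and 8.33 peaks per Mb in the vitamin C libraries and 26.5 and 21.9 in the control libraries. The drop at 1 kb was thus present on the upstream side and absent on the downstream side in each library.

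**Figure D1:**
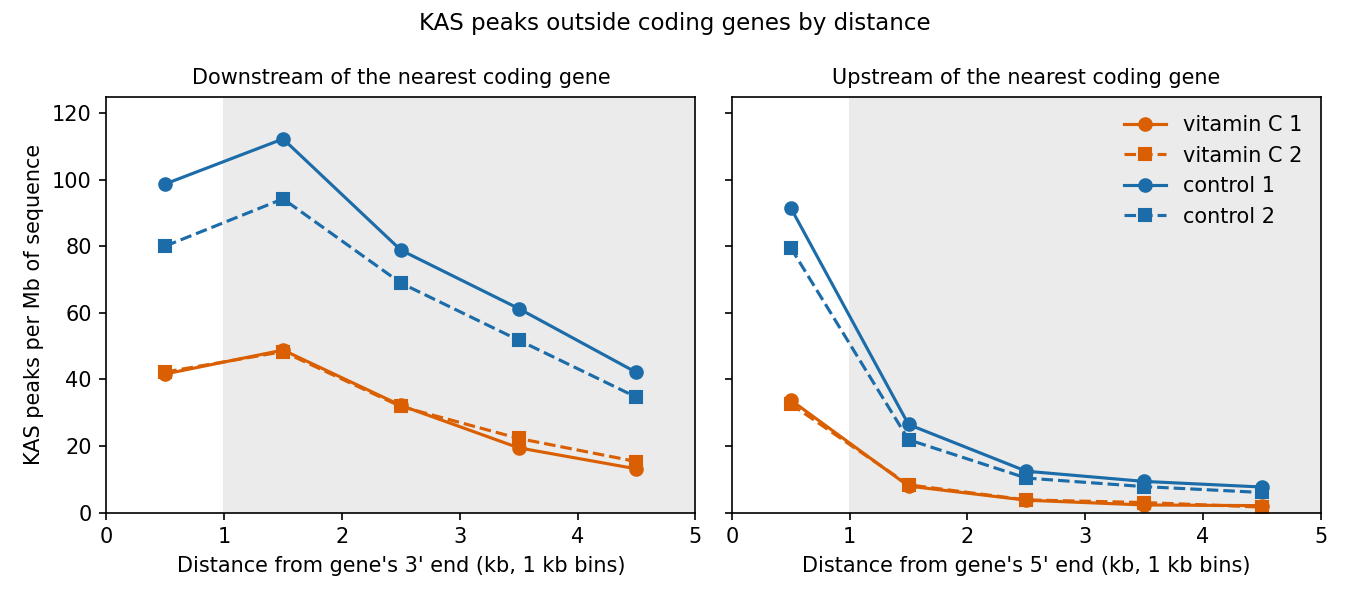
Density of KAS peaks (peaks per Mb of sequence, vertical axis) in 1 kb bins of distance from the nearest coding gene (horizontal axis), downstream of the 3′ end (left panel) and upstream of the 5′ end (right panel), for the 2 vitamin C libraries (orange) and the 2 control libraries (blue). Grey marks the 1 to 5 kb zone of the members. Downstream density is highest at 1 to 2 kb (48.8 and 48.4 in vitamin C, 112 and 94.3 in control), while upstream density is highest in the first kilobase.

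Some of the upstream members also followed a gene on their other side. Of the 298, 97 lay within 5 kb past the 3′ end of another coding gene, and 142 within 10 kb. Among the 10 upstream members of highest control strength, 6 lay within 5 kb past such an end. Control strength here and below is the mean over both control libraries of the percentile of the best overlapping peak's fold within its own list. The strongest upstream member lay 2184 bp upstream of ISY1, which encodes a splicing factor, and 4580 bp past the end of CNBP, which encodes a nucleic acid-binding protein. The next lay 1094 bp upstream of CEP192, a centrosome gene, and 2732 bp past SEH1L, which encodes a nuclear pore subunit. The KIFBP member came after these and lay 2647 bp past the end of DDX21, the gene of a nucleolar RNA helicase. RPS23 and ZNF503, the fourth and the fifth, did not lie within 5 kb past such an end. Both neighbours had a known strand for 1634 members, of which 981 lay between genes in tandem, 598 between convergent genes and 55 between divergent genes.

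The 2336 members had 1847 different nearest genes. A single member was found at 1427 of them, 2 at 355, 3 at 61 and 4 at 4 genes. For 61.2% of members another control region overlapped the nearest gene, and genes with several members count repeatedly in this share. Counted once per gene, 26.8% of the 19974 coding genes were overlapped by any control region, so the shares have unlike units. Other regions outside the nearest gene were not counted in the 61.2%. Median width was 682 bp, with a range of 217 to 8956 bp, and 236 members were at least 2 kb wide. Members overlapped an annotated lncRNA gene in 318 cases and a pseudogene in 72. No annotated coding, lncRNA, pseudogene or small RNA gene overlapped 1890 members, and some other gene classes were not checked. In 61 cases the region reached into a coding gene although its midpoint lay outside.

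After vitamin C, fewer peaks were called in the zone 1 to 5 kb outside coding genes. The vitamin C lists had 1503 and 1559 peaks there and the control lists 4096 and 3451, with no overlap between the groups. The mean was 1531 ± 39.6 peaks in the vitamin C libraries and 3774 ± 456 in the control libraries (SD, n = 2 each), a log2 ratio of -1.30. This difference was larger than the spread between replicates. The exact two-sided permutation p was 0.333 (0.333 after Benjamini-Hochberg adjustment over 4 measures), the smallest that 2 libraries against 2 can give. When every list was cut to its 9816 peaks of lowest q, which makes the lists equally long, the log2 ratio was 0.039.

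The zone made up a slightly larger share of the vitamin C lists. It held 15.3% and 15.8% of peaks in the vitamin C libraries and 13.5% and 14.3% in the control libraries, and the groups did not overlap. The difference of the means was 1.63 percentage points (exact two-sided permutation p = 0.333, 0.333 after Benjamini-Hochberg adjustment over 4 measures, n = 2 each). With lists of equal length it was 0.41 percentage points. The covered length was 869 and 830 kb in the vitamin C libraries and 2538 and 2164 kb in the control libraries, a log2 ratio of -1.47 with the same exact permutation p. Median peak width was 385 and 382 bp in the vitamin C libraries and 409 and 414 bp in the control libraries, a difference of -28 bp with the same exact permutation p. Mean peak width was 578 and 533 bp in the vitamin C libraries and 620 and 627 bp in the control libraries. Once the lists were made equally long, covered length gave a log2 ratio of -0.73, and median widths differed by -244 bp.

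Peaks of the zone were more often downstream and slightly nearer to genes in the vitamin C lists. The downstream share of peaks with a known strand was 87.0% and 86.8% in the vitamin C libraries and 83.1% and 83.5% in the control libraries, a difference of 3.55 percentage points (exact two-sided permutation p = 0.333, n = 2 each). The number of upstream peaks was 166 and 174 in the vitamin C libraries and 576 and 475 in the control libraries, a log2 ratio of -1.63. The number of downstream peaks was 1107 and 1142 in the vitamin C libraries and 2836 and 2407 in the control libraries, a log2 ratio of -1.22. The median distance from the gene was 2088 and 2140 bp in the vitamin C libraries and 2244.5 and 2223 bp in the control libraries. With lists of equal length the difference in downstream share was 0.24 percentage points and the difference in median distance was 26 bp instead of -119.75 bp. These last 2 measures were added after seeing the data.

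**Figure D2:**
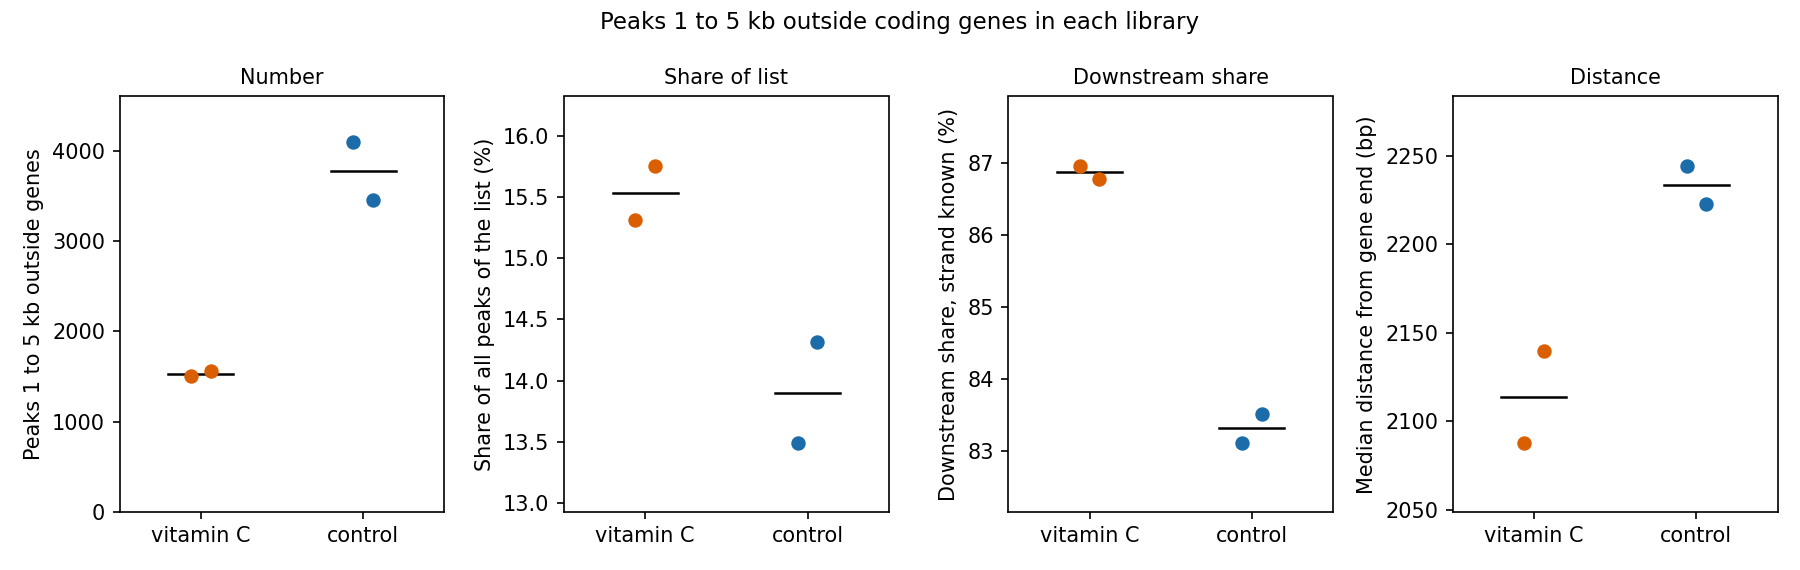
Peaks 1 to 5 kb outside coding genes in each vitamin C library (orange) and each control library (blue): their number, their share of all peaks of the list (%), the share downstream among those with a known strand (%) and their median distance from the gene (bp). Points are libraries, black lines are group means, and the last 3 axes do not start at 0. No panel has overlapping groups, with 1503 and 1559 peaks in vitamin C and 4096 and 3451 in control.

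Of the 2336 members, 833 were met in both vitamin C libraries (35.7%, 95% interval 33.7 to 37.6%), where met means an overlap of at least 1 bp. Over all 15177 control regions the share was 33.1%. The members' share was 68.6% with lists of equal length, 14.4% where 50% of a region had to be covered and 21.6% with regions taken from control replicate 1 alone. The members met in 1 vitamin C library numbered 564 (24.1%, against 24.9% of all control regions), and those met in neither numbered 939 (40.2%, interval 38.2 to 42.2%, against 42.0% of all control regions). Each vitamin C library alone met 48.4% and 47.1% of members. The control side is fixed by the rule, so these shares carry no test. Members thus stood close to the background of all control regions.

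In the opposite direction a larger share was met, in control lists that are longer. The vitamin C lists gave 959 regions in the zone that both of their libraries overlapped, and 924 of these (96.4%, interval 94.96 to 97.4%) were met in both control libraries, against 94.4% of all such vitamin C regions. With lists of equal length the share was 75.1%, beside 68.6% of members met in both vitamin C libraries. A further 29 were met in 1 control library and 6 in neither. The 6 lay near TOMM34, C11orf98, SOCS5, TLE3, MAP1B and TUBB2B. They were 290 to 439 bp wide, and their peaks had authors' folds of 2.46 to 6.07 in vitamin C replicate 1 and 2.55 to 6.22 in vitamin C replicate 2. The one near TOMM34, a mitochondrial import gene, ranked highest by the mean percentile of its folds, with folds of 6.02 and 5.98 in the vitamin C libraries and no peak in either control library.

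Among other control regions without a small RNA gene nearby, 30.9% were met in both vitamin C libraries. The share was 37.8% for regions at gene ends (within 1 kb), 27.3% in gene bodies and 30.9% for regions over 5 kb from any coding gene. Median control strength was 62.1 for members, against 67.0 at gene ends, 52.8 in gene bodies and 55.6 far from genes. Reweighted to the members' control strengths, the shares were 34.1% for all other regions, 33.6% at gene ends, 33.9% in gene bodies and 34.8% far from genes, all below the members' 35.7% and all but that at gene ends inside its interval.

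Members with stronger peaks in the control libraries were met more often. Both vitamin C libraries met 10.9% of the weakest 20% of members (interval 8.24 to 14.1%), and in the next bins of 20% they met 15.8%, 24.4% and 44.1%. Among the strongest 20% the share was 82.9% (interval 79.2 to 86.2%). All of the 100 strongest members were met in both, and the first member not met in both ranked 126th. Within the strongest 10% of all control regions, 97.9% of members were met in both, against 92.6% of the other regions, with a median width of 2081 bp for those members and 1202 bp for the others. Members also stood above the others in bins 2, 4, 8 and 9, with 51.4% of members and 40.9% of the others in bin 8. They stood below them in bins 1 (the weakest), 3, 5, 6 and 7, with 10.8% of members and 14.1% of the others in bin 1.

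**Figure D3:**
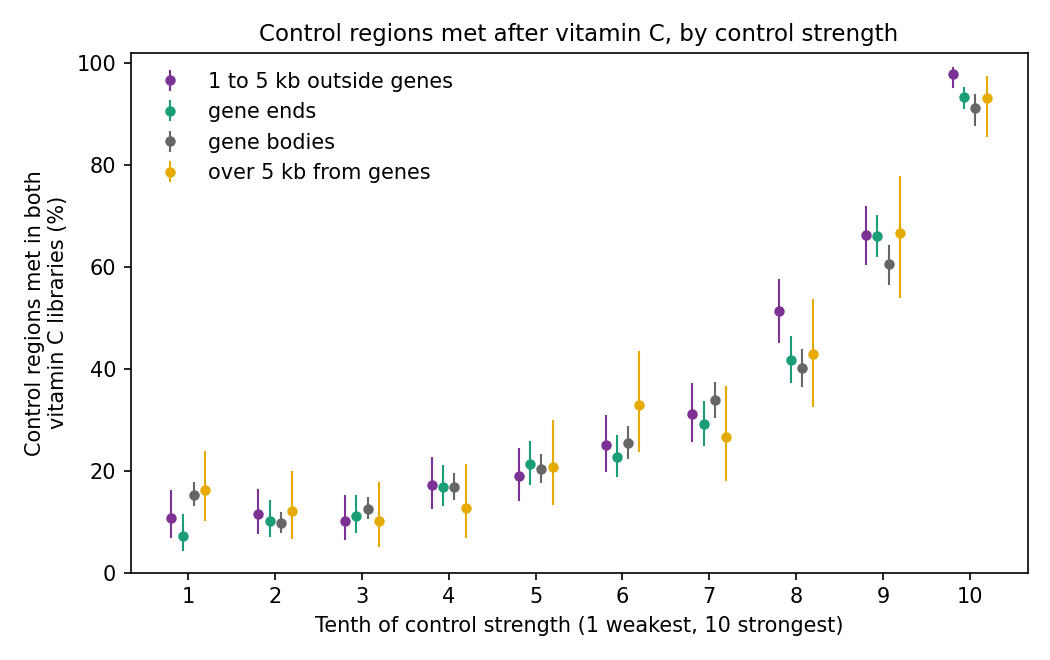
Share of control regions met in both vitamin C libraries (%, vertical axis) by bins of 10% of control strength over all control regions (horizontal axis, 1 weakest), for the members 1 to 5 kb outside genes and for regions at gene ends, in gene bodies and over 5 kb from genes. Points are shares and bars their 95% Clopper-Pearson intervals, and regions near small RNA genes are left out. In all 4 classes the share is highest in the strongest bin, where it is 97.9% for members.

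Wider members were met more often. Both vitamin C libraries met 11.3% of the 682 members under 500 bp, 28.5% of the 941 between 500 and 1000 bp, 57.2% of the 477 between 1 and 2 kb, 89.0% of the 191 between 2 and 4 kb, and all 45 of at least 4 kb. A wider region offers more bases to overlap and was also stronger, with a median control strength of 51.5 under 500 bp and 97.8 at 4 kb or more. Of the 61 members that reached into a coding gene, 60 were met in both.

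The share met was highest for downstream members nearest the 3′ end, without a test and with overlapping intervals. Both vitamin C libraries met 40.4% of downstream members at 1 to 2 kb (interval 36.9 to 43.9%), 36.6% at 2 to 3 kb, 32.2% at 3 to 4 kb and 31.7% (interval 25.03 to 39.0%) at 4 to 5 kb. Downstream members as a whole were met in both in 37.0% of cases (interval 34.7 to 39.4%) and upstream members in 29.2% (interval 24.1 to 34.7%). Median control strength was 68.5 and median width 776 bp at 1 to 2 kb downstream, against 59.2 and 629 bp at 4 to 5 kb, and median control strength was 63.2 over all downstream and 54.7 over all upstream members; the part of strength and width in these shares was not tested. With lists of equal length that difference of 7.82 percentage points was 1.501. Where another control region overlapped the nearest gene the share was 39.8%, at a median control strength of 65.4. Where none did it was 29.1%, at a median control strength of 57.9. For members over an annotated lncRNA gene the share was 30.2% (interval 25.2 to 35.6%), at a median control strength of 58.1. For the rest it was 36.5% (interval 34.4 to 38.7%), at a median control strength of 62.9. The part of strength in these shares was not tested either.

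**Figure D4:**
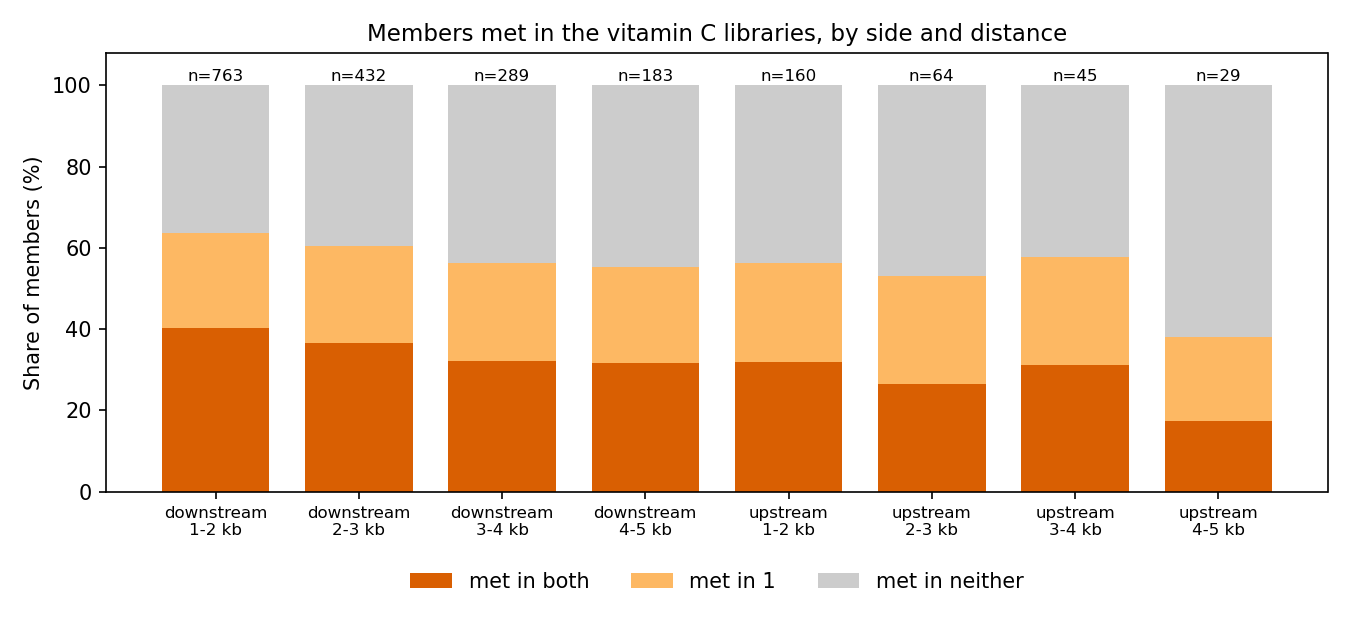
Share of members (%, vertical axis) met in both (dark orange), 1 (light orange) and neither (grey) of the vitamin C libraries, by side of the nearest gene and distance from its end (horizontal axis); n is the number of members in a bar. Among downstream members the share met in both is 40.4% at 1 to 2 kb and 31.7% at 4 to 5 kb, and the upstream bars beyond 2 kb hold 64, 45 and 29 members.

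Members met in all 4 libraries were covered over a shorter stretch in the vitamin C lists. Peaks covered a median of 54.6% and 50.6% of a region in the vitamin C libraries and 94.7% and 88.6% in the control libraries, over the 833 members met in both. In 663 of these (79.6%) both vitamin C libraries covered fewer bases than both control libraries, and in 1 both covered more. No such share is given for other control regions, so it is not shown to be particular to the members. The region is the union of the control peaks, so the control values are high by construction and the comparison favours the control libraries. In the 45 members of at least 4 kb, which together span 248.6 kb, peaks covered 164 and 153 kb in the vitamin C libraries and 233 and 221 kb in the control libraries. These wide members held a median of 3 peaks in each vitamin C library and 2 in each control library. A member is a continuous union of control peaks, so a low number of control peaks in a wide one is partly built in. Over the 833 members met in both, the median was 1 peak in all 4 libraries.

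The widest member began inside NPM1, the gene of the nucleolar chaperone nucleophosmin, reached past its 3′ end and spanned 8956 bp (chr5:171409060-171418015, hg38). Peaks covered 6548 and 5652 bp of it in the vitamin C libraries and 8581 and 8644 bp in the control libraries, and the list counted 3 and 6 peaks in the vitamin C libraries against 2 and 2 in the control libraries. The member past HNRNPD, which encodes an RNA-binding protein of AU-rich messages, spanned 7469 bp. Of this, peaks covered 4786 and 4703 bp in the vitamin C libraries and 7085 and 6676 bp in the control libraries. Upstream of MTFR2 a region of 7448 bp filled the space up to the 3′ end of BCLAF1, the gene of an RNA-binding protein on the same strand, and reached into both genes. Peaks covered 5676 and 5520 bp of it in the vitamin C libraries and 7388 and 6704 bp in the control libraries. The region past ATF4, the transcription factor of the integrated stress response, spanned 7306 bp, with 5513 and 4823 bp covered in the vitamin C libraries and 7014 and 7000 bp in the control libraries. At each of these 4 loci the covered lengths of the groups did not overlap. The loci were chosen by the width of the union of control peaks, which by construction favours the control libraries.

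**Figure D5:**
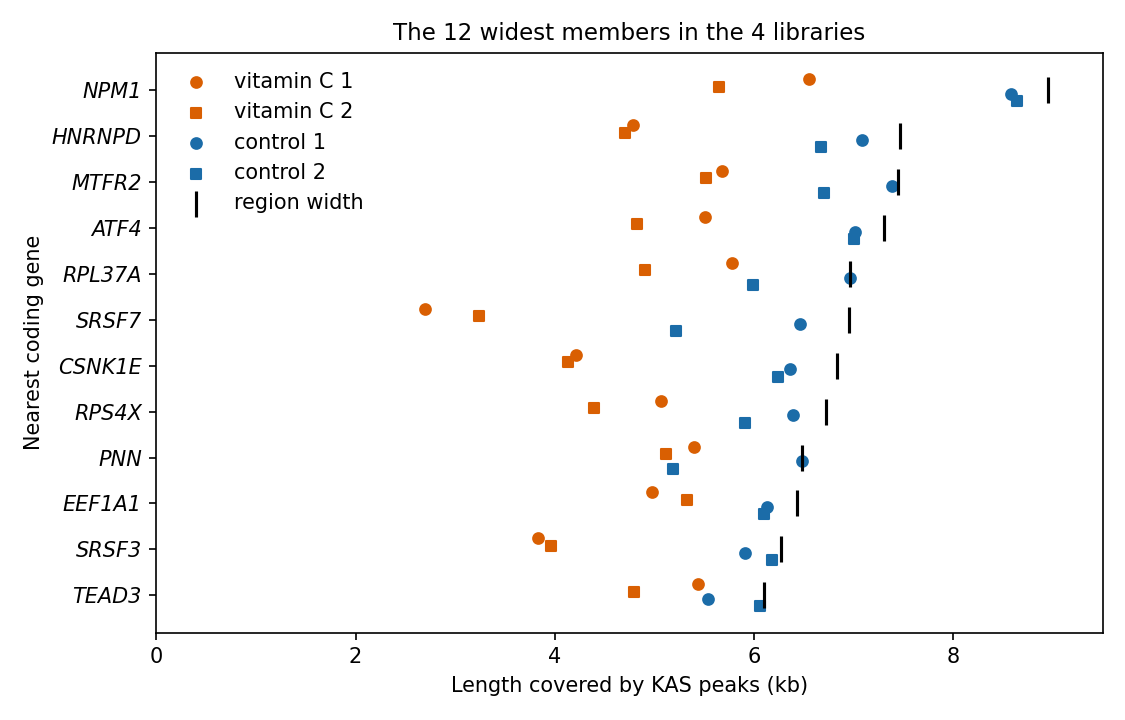
Length covered by KAS peaks (kb, horizontal axis) in the 12 widest members, named by the nearest coding gene, in the 2 vitamin C libraries (orange) and the 2 control libraries (blue). Circles are replicate 1, squares replicate 2, and black ticks the width of the region, which is the union of the control peaks. Points of both vitamin C libraries lie left of both control points in every row but PNN (5402 and 5119 bp in vitamin C, 6486 and 5185 bp in control), from 6548 and 5652 bp against 8581 and 8644 bp at NPM1 to 5434 and 4796 bp against 5537 and 6063 bp at TEAD3.

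Several of the strongest members lay near genes of the translation machinery, and the 10 strongest were met in every library. The region past RPL37A, a protein of the large ribosomal subunit, spanned 6969 bp (chr2:216502140-216509108), and its best peak had an authors' fold of 21.0 and 17.2 in the vitamin C libraries and 49.5 and 39.2 in the control libraries. These folds are each peak's own enrichment over background in its list and only rank peaks within that list. Past EEF2, the elongation factor that moves the ribosome along the message, the best folds were 22.4 and 19.2 in the vitamin C libraries and 39.6 and 23.2 in the control libraries. Past EEF1A1, the elongation factor that brings aminoacyl-tRNA to the ribosome, they were 23.4 and 20.3 in the vitamin C libraries and 36.0 and 22.02 in the control libraries. The 10 strongest members met in both also included those at RPL23 and RPL10A, the second of which shares its region with TEAD3, a Hippo pathway transcription factor whose 3′ end faces it. Others among the 10 lay near TMEM167B, SLC3A2, SNX5 and ZNF703. Past SLC3A2, the heavy chain of amino acid transporters, the folds were 23.8 and 18.5 in the vitamin C libraries and 40.2 and 37.3 in the control libraries. Near ZNF703, a zinc finger gene, a region of 928 bp had folds of 33.4 and 21.4 in the vitamin C libraries and 35.4 and 22.2 in the control libraries.

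A small RNA gene outside the excluded classes overlapped 5 members, wholly or in part. All 5 were met in both vitamin C libraries, against 35.7% of all members. The small RNA genes included SCARNA2, a guide RNA for modification of spliceosomal RNAs, past TMEM167B, and the vault RNA gene VTRNA1-1 past ZMAT2. The others were the microRNA genes MIR7111, MIR3193 and MIR5695 near TEAD3, ID1 and SYCE2. The SCARNA2 region spanned 808 bp (chr1:109099579-109100386), with best folds of 25.1 and 31.5 in the vitamin C libraries and 42.7 and 38.7 in the control libraries. RefSeq lists SCARNA2 as an ncRNA and not as a snoRNA, so the rule left it in. Of the 42 regions left out for a tRNA, snRNA or snoRNA gene, 39 were met in both vitamin C libraries, against 33.1% of all control regions. Median control strength was 98.9 for these 42 regions and 98.9 for the 5 members, against 58.8 over all control regions and 62.1 over all members. The part of strength in these shares was not tested.

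The 10 strongest members met in both vitamin C libraries were 808 to 6969 bp wide and had higher control strengths than those described next. The 10 strongest without a peak in either vitamin C library were 356 to 1282 bp wide. The first lay 2663 bp from NKX2-5, which encodes a cardiac transcription factor, spanned 380 bp (chr5:173229256-173229635) and had folds of 11.3 and 13.5 in the control libraries. Past HELLS, a chromatin remodelling gene, a region of 1282 bp had folds of 10.2 and 11.4 in the control libraries. Past POLR2D, the gene of an RNA polymerase II subunit, a region of 356 bp had folds of 9.91 and 11.4 in the control libraries. Past CNOT10, the gene of a CCR4-NOT subunit, the region spanned 1074 bp, and that near GTF2I, a transcription factor gene, spanned 483 bp. The others of the 10 strongest lay near C20orf204, SEPHS1, COX16, HIF1AN and TNPO1, and all 10 had a control strength between 89.2 and 93.3. A missing peak says that none was called in the list and not that DNA was closed.

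Members met in 1 vitamin C library showed no preference for one replicate among the 5 strongest. The regions near PTMA, GMEB2 and DERL1 had a peak only in vitamin C replicate 1, and those near PPP4R1 and NDUFAF8 only in vitamin C replicate 2. At PTMA, the gene of prothymosin alpha, the fold was 7.01 in vitamin C replicate 1, against 19.3 and 11.9 in the control libraries.

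One gene could have members of either kind. Past HIF1AN, the gene of the asparagine hydroxylase that acts on hypoxia-inducible factor, the member 4886 bp from the gene had folds of 5.68 and 6.90 in the vitamin C libraries and 13.2 and 7.18 in the control libraries. The member 3146 bp from the same gene had no peak in either vitamin C library, against folds of 11.1 and 9.73 in the control libraries. At CCNT1, which encodes the cyclin of the elongation kinase P-TEFb, the member 2412 bp past the gene was met in both, with folds of 17.0 and 5.80 in the vitamin C libraries and 18.5 and 17.2 in the control libraries. The member 1245 bp past CCNT1 was met in neither, against folds of 8.14 and 8.73 in the control libraries. Of the 4 members past ZNF189, a zinc finger gene, 1 was met in both, 1 in 1 and 2 in neither.

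Lists of genes were set against the members through each member's nearest gene, as counts only. Each list stands beside the shares over all members, 35.7% met in both, 24.1% in 1 and 40.2% in neither. Cytosolic ribosomal protein genes, a list of 86 genes, 23 of them nearest to a member, had 28 members, of which 23 were met in both vitamin C libraries (82.1%) and 5 in neither, against 35.7% of all members met in both. The median control strength of these 28 was 93.9 and their median width 2237.5 bp, against 62.1 and 682 bp over all members. RPS15A, which encodes a protein of the small ribosomal subunit, was among the 5 met in neither, with folds of 6.61 and 6.49 in the control libraries. Splicing factor and hnRNP genes had 25 members, with 17 met in both (68%), 3 in 1 and 5 in neither, and a median control strength of 85.2. HNRNPK, the strongest of them, had folds of 27.2 and 32.1 in the vitamin C libraries and 45.1 and 16.2 in the control libraries, whereas the members past SNRPE and HNRNPR had no vitamin C peak.

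Zinc finger genes of the ZNF family, a list of 509 genes, 68 of them nearest to a member, had 83 members, of which 26 were met in both (31.3%), 25 in 1 and 32 in neither, at a median control strength of 66.2. The member past ZNF282 was met in both, with folds of 12.4 and 15.3 in the vitamin C libraries and 22.96 and 20.5 in the control libraries, while those past ZNF589 and ZNF444 were met in neither. HOX cluster genes, which pattern the body axis, had 13 members, with 7 met in both, 5 in 1 and 1, at HOXB2, in neither. Their median control strength was 80.5. The member near HOXD9 had folds of 10.97 and 11.5 in the vitamin C libraries and 14.9 and 15.1 in the control libraries.

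Heat shock and chaperone genes had 20 members, with 7 met in both, 4 in 1 and 9 in neither. Their median control strength was 75.1. Past HSPA8, the constitutive HSP70 chaperone, the folds were 14.3 and 19.8 in the vitamin C libraries and 13.4 and 19.7 in the control libraries, and past DNAJA2 and HSPA9 no vitamin C peak was called. Immediate early genes, which respond to stimuli within minutes, had 7 members, with 1 met in both, 4 in 1 and 2 in neither, at a median control strength of 41.6. The one met in both lay past JUNB, with folds of 6.54 and 6.28 in the vitamin C libraries and 3.89 and 7.91 in the control libraries, and those met in neither lay past DUSP1 and JUN. Replication-dependent histone genes have messages that end in a stem-loop instead of a poly(A) tail. They had 6 members, with 1 met in both, at H3C14, 2 in 1 and 3 in neither, at a median control strength of 45.2.

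Among genes tied to the known chemistry of vitamin C, a cofactor of iron-dependent dioxygenases, the Fe(II) and 2-oxoglutarate dioxygenase genes had 16 members, with 4 met in both, 3 in 1 and 9 in neither, at a median control strength of 45.8. Over all members 35.7% were met in both and 40.2% in neither, at a median control strength of 62.1. KDM2A, a histone demethylase gene, had a member met in both, with folds of 8.47 and 6.95 in the vitamin C libraries and 8.60 and 9.67 in the control libraries, and that past PHF8, another demethylase gene, was met in neither. Antioxidant, ascorbate and iron handling genes had 10 members, with 6 met in both, 1 in 1 and 3 in neither, at a median control strength of 76.4. Past TXN, the thioredoxin gene, the folds were 8.70 and 18.7 in the vitamin C libraries and 12.1 and 14.3 in the control libraries, and the member at SLC7A11, a cystine transporter gene, was among those met in neither. Glycolysis genes had 6 members, with 3 met in both, 1 in 1 and 2 in neither, at a median control strength of 83.1. Both of those met in neither lay upstream of a gene, GAPDH and HK2, and overlapped an annotated lncRNA gene. The GAPDH member also lay 1535 bp past the 3′ end of NCAPD2.

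Genes of RNA polymerase II pausing, elongation and termination had 22 members, with 9 met in both (40.9%), 5 in 1 and 8 in neither, at a median control strength of 75.2. Past TTF2, a termination factor gene, the folds were 9.08 and 11.1 in the vitamin C libraries and 14.7 and 13.2 in the control libraries. Past XRN2, the gene of the exonuclease that acts in termination, a region of 356 bp was met in neither vitamin C library, against folds of 6.60 and 9.19 in the control libraries. Over the 11 lists, that with the highest share met in both (ribosomal protein genes) also had the highest median control strength, and that with the lowest share (immediate early genes) the lowest, and no test was made of the lists.

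The regions nearest the bounds of the zone are given as a description. Just inside 1 kb lay the members 1000 bp past TOB2 and 1001 bp past GINS3, both met in both vitamin C libraries, and just outside it regions 998 bp upstream of PPP1R8, met in neither, and 999 bp upstream of CLTC, met in 1. Just inside 5 kb lay those 4989 bp past PCNT, met in 1, and 4998 bp upstream of LRRFIP2, met in neither, and just outside it regions 5002 bp upstream of PTPN23, met in both, and 5009 bp past XPO6, met in neither.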

How the data were processed

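Peaks of the 4 labelled KAS-seq libraries of HEK293T cells (2 vitamin C, 2 control) were analysed. The submitters' processing notes name MACS2 2.2.7.1, Bowtie2 2.4.5, deepTools, cutadapt, Trim Galore and bcl2fastq 2.19 and the build hg38, without order or settings. Each deposited list was called per library and gives the authors' fold enrichment of a peak (a linear ratio over background), the authors' −log10 p-value and −log10 q-value, and the summit offset. Between 4.23% and 5.06% of the deposited peaks lay on other sequences and were left out. Read counts are not in the lists, so depth was solved from the deposited fold and −log10 p (tolerance 0.005), which succeeded for 100% of 1000 peaks per list.

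Genes, sequences and strands came from RefSeq tables of GRCh38.p14, the same build as hg38, and a strand was given for 15812 of 19974 coding genes. Distances run from a region's midpoint to the nearest coding gene end. Differences between libraries were tested by exact two-sided permutation (smallest p 0.333) with Benjamini-Hochberg adjustment, and shares carry 95% Clopper-Pearson intervals. Members named were the 10 strongest met in both and in neither, the 5 strongest met in 1, the 5 widest, the 5 strongest on each side, those nearest the bounds, and up to 2 met in both and 2 in neither per gene list. A few members chosen by these rules are not reported here. Members at genes with several, the 12 widest and the small RNA loci were chosen after their values were seen. The members and lists were chosen with earlier results of these data known. Lists were matched by gene symbol. Alternatives were stricter q or fold, equal list lengths, other distances, overlaps and gene sets, summit positions, leaving out each library in turn and a replicate block. Calculations used Python 3.11.15, numpy 2.4.6, pandas 2.3.3 and scipy 1.17.1, and the distance and overlap steps were tested on simulated lists. Every title names HEK293T and was followed, although the number in the cell line label varies.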

Additional observations from a re-analysis of the deposited data

How the results depend on the processing

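Cutting every list to an equal length reversed the log2 ratio of zone peaks to 0.039 and the difference in median distance to 26 bp, and gave -0.73 for covered length and -244 bp for median width. It also moved the members met in both vitamin C libraries to 68.6% and in neither to 12.9%, the vitamin C regions met in both controls to 75.1%, the downstream minus upstream difference to 1.501 points and the difference between the strongest and weakest 20% of members to 51.1 points (72.0 as reported). Requiring 50% of a region to be covered gave 14.4% met in both, 63.8% in neither, 92.5% of vitamin C regions met in both controls, 34.2 points between strongest and weakest and a reversed difference of -0.18 points between members and other control regions (4.76 as reported). Widening peaks by 500 bp gave 39.6%, 35.1% and 97.8% for the first 3 of these. A zone of 2 to 5 kb gave 32.7% met in both, 42.5% in neither, 1.12 points over other regions, 94.9% of vitamin C regions and 66.6 points between strongest and weakest, and a fold of at least 4 gave 93.7% of vitamin C regions and 76.4 points.

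Leaving out each library in turn gave 21.6 to 48.4% of members met in both and 51.6 to 59.9% in neither. It gave 84.4 to 99.0% of vitamin C regions met in both controls and 55.8 to 68.8 points between strongest and weakest. Without a vitamin C library, members had fewer lists to meet. Without a control library, members came from a single control list and were more numerous. The vitamin C regions changed in the opposite way, so these values move by construction. The log2 ratio of zone peaks ran from -1.42 to -1.17, its share difference from 1.22 to 2.04 points, covered length from -1.58 to -1.35, median width from -30.5 to -25.5 bp, members minus others from 3.74 to 5.64 points, downstream minus upstream from 4.64 to 9.74 points, downstream share from 3.35 to 3.75 points and median distance from -145.75 to -93.75 bp. A q threshold of 5 (−log10), a 1 to 10 kb zone, summit positions, genes of any type and no exclusion of small RNA genes changed no direction. The difference in median width was -46.25 bp at that q threshold, and that in median distance -282.25 bp in the 1 to 10 kb zone. Replicates share only a number: over 833 members the replicate differences of the 2 groups correlated at -0.00599, and the replicate block gave -1.30 for zone peaks, 1.63 points for their share, -1.46 for covered length, -28 bp for width, 3.55 points for the downstream share and -119.75 bp for distance. With 2 libraries a group no exact p can fall below 0.333, and no number of reads per region is known.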
